A study of Mus musculus with 16 samples.

Results

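The enzymes described here are the large families that modify drugs and other foreign compounds. They were the protein-coding genes whose symbols start with Cyp and a digit, Gst, Ugt1, Ugt2, Sult or Aldh, and the rule left out Cyp1a1, Cyp1a2, Cyp1b1, Cyp2e1 and Ugt1a6a. The rule found 156 genes, all of them in the cortical bone table of 38933 genes and 60 of them also in the skeletal muscle table of 21011 genes. Female C57BL/6 mice, 18 months old, received either BAY2416964 (BAY), an antagonist of the aryl hydrocarbon receptor (AhR), or the vehicle alone (VEH) by oral gavage. The dose was 30 mg/kg, given 5 days a week over 8 weeks. Bulk RNA-seq was performed on cortical bone shafts and on the tibialis anterior muscle of 4 mice per group, with 1 library per mouse. The mice carried no transgene, and the shafts had been digested with collagenase before RNA isolation.

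Cytochromes P450 (Cyp) and aldehyde dehydrogenases (Aldh) carry out phase I reactions, which oxidize a compound. Glutathione S-transferases (Gst), UDP-glucuronosyltransferases (Ugt) and sulfotransferases (Sult) carry out phase II reactions, which attach glutathione, a sugar acid or sulfate. AhR is a ligand-activated transcription factor that binds the xenobiotic response element (XRE), and several genes of these families are among its textbook targets in liver. The liver is the main site of these families, while skeletal muscle and bone are known chiefly for Aldh and Gst enzymes and for P450s that act on sterols, retinoids and fatty acids.

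The deposited values are log2 of CPM, the reads of a gene relative to all reads of its library, with a small offset added, and 1 counted read was worth 0.108 to 0.163 CPM in skeletal muscle and 0.144 to 1.07 CPM in cortical bone. The libraries held 6131919 to 9262358 reads on genes in skeletal muscle and 930307 to 6951919 in cortical bone. A summed level of 8 skeletal muscle fibre markers of 97989 to 168323 CPM matched the muscle label, while in cortical bone 8 osteoblast and osteocyte markers summed to 1005 to 22864 CPM and the fibre markers to 32.0 to 33325 CPM. Several libraries stood apart. In cortical bone the fibre markers were at 29984 and 33325 CPM in BAY replicates 1 and 2, at 6893 CPM in VEH replicate 1 and at 32.0 to 1132 CPM in the other 5 libraries. In skeletal muscle VEH replicate 3, whose column header carries a word for replacement, 8 adipocyte markers summed to 330 CPM, against 38.8 to 56.7 CPM in the other 7 libraries, and 5 fibroblast markers to 198 CPM against 54.0 to 78.7 CPM. In cortical bone VEH replicate 1, the deepest library, genes with an Olfr symbol took 0.0513% of the CPM, against 0.544% to 3.52% in the other 7. Olfr genes encode olfactory receptors, which are known from the nose.

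In skeletal muscle few of these enzymes passed the test. Of 60 members, 1 was called, where a call needs an unadjusted P value under 0.05 in limma and a change of 2-fold or more. Of all genes tested in muscle, 2.43% were called. The called gene was Cyp2s1, a P450 at 1 or 2 reads in each VEH library and at 0, 0, 1 and 0 reads in the BAY libraries. No member had an adjusted P value under 0.05 (limma, Benjamini-Hochberg over all genes, smallest 0.445), while 2 members had an unadjusted P value under 0.05, and limma-voom on recovered reads gave 0 and 2. By limma 13% of all genes averaging 1 CPM or more had an unadjusted P value under 0.05. That share was not counted over all genes or by voom. With voom 0 members were called and 3.33% of all genes were, and on log2(CPM + 1) 0 members and 0.247% of genes.

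A mean of at least 1 CPM was reached by 37 of the 60 members, and the other 23 had 5 to 62 reads over the 8 libraries together. Of these 37, 20 were higher and 17 lower in BAY, with a median log2 fold change of 0.02, beside 0.06 over all 13170 genes at that level, of which 57.5% were higher. Their log2 fold changes ran from -0.81 for Cyp2j6 to 0.61 for Gstcd, which became -0.50 and 0.43 without VEH replicate 3. For 28 of the 37, the 95% interval of the log2 fold change lay inside a 2-fold change in either direction, and 70.0% of all genes at that level had such an interval. Without VEH replicate 3, 24 of the 37 were higher in BAY and the median was 0.15, while over all 60 members and over all genes the medians were then 0.14 and 0.12. That library was the highest of the 4 VEH libraries for 26 of the 37 members and for 51.8% of all genes at that level. The part of the adipocyte and fibroblast RNA of that library in these values was not tested. In bulk tissue, fewer cells of a type and less RNA per cell cannot be told apart.

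**Figure D1:**
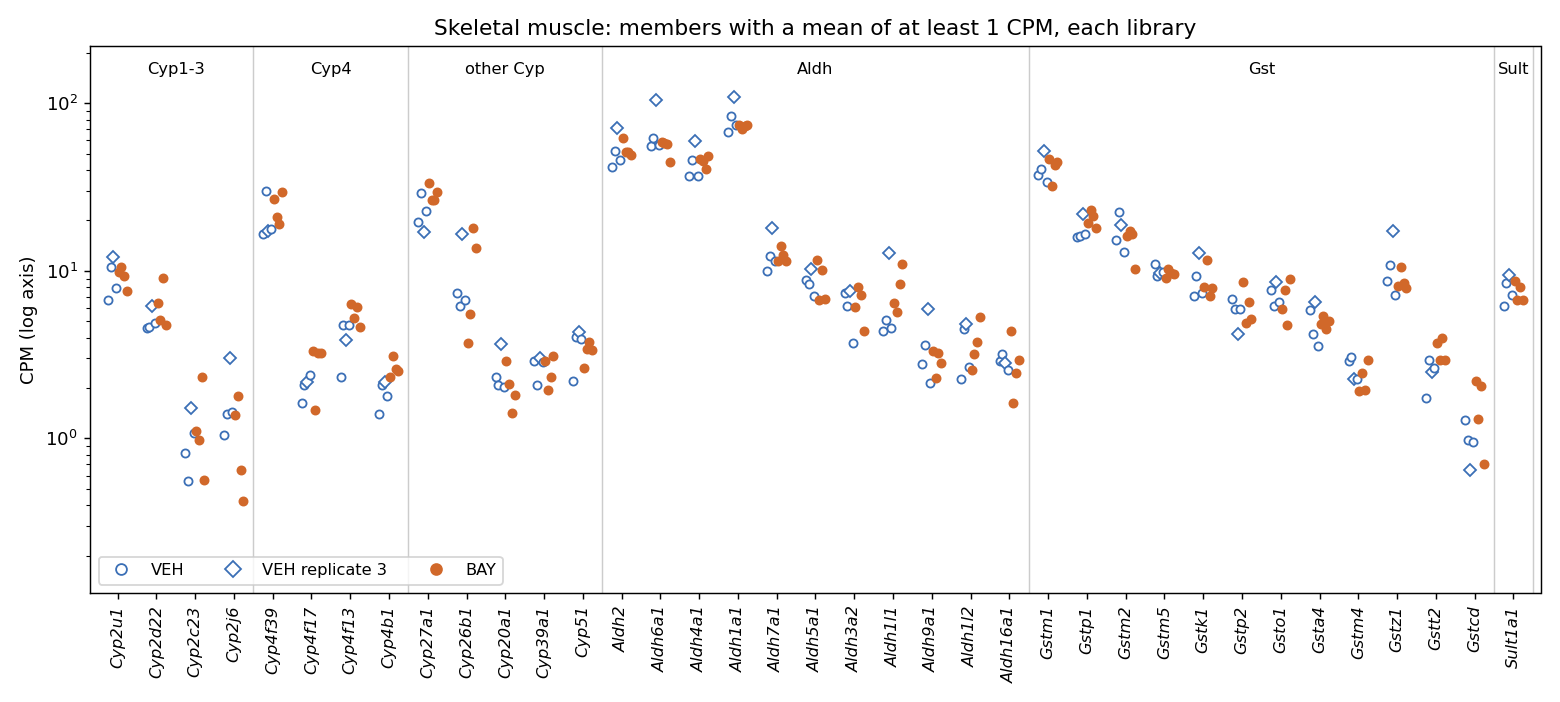
CPM on a log axis of each member averaging 1 CPM or more in skeletal muscle, 1 point per library, with VEH open, BAY filled and VEH replicate 3 as diamonds. Members are grouped by family and ordered within it by CPM per kb of exon; the groups overlap for 35 of the 37, and Aldh6a1 reads 104 CPM in VEH replicate 3 against 44.8 to 62.1 CPM in the other libraries.

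Aldh genes held the largest summed level in skeletal muscle. The 18 Aldh members together came to 241, 290, 414 and 250 CPM in VEH and to 290, 267, 272 and 265 CPM in BAY. The BAY values all lay within the VEH range, which VEH replicate 3 widened at its top. Per kb of exon the leading members were Aldh2, the mitochondrial enzyme that clears acetaldehyde, at 8.73 CPM per kb, Aldh6a1 of valine breakdown at 8.37, Aldh4a1 of proline breakdown at 7.32 and Aldh1a1, which oxidizes retinaldehyde to retinoic acid, at 7.30. Aldh2 read 41.8, 52.0, 71.5 and 45.9 CPM in VEH and 62.3, 51.2, 51.1 and 48.9 CPM in BAY. Its groups overlapped throughout, with a log2 fold change of 0.04 ± 0.16 (SE), or 0.20 without VEH replicate 3. Aldh6a1 read 55.4, 62.1, 104 and 56.5 CPM in VEH and 59.0, 57.7, 56.9 and 44.8 CPM in BAY. Its log2 fold change of -0.31 ± 0.19 became -0.09 without VEH replicate 3. Aldh1a1 read 67.9, 84.1, 110 and 74.4 CPM in VEH and 73.8, 70.5, 73.0 and 74.2 CPM in BAY. The 4 BAY libraries lay inside the VEH range, and the log2 fold change was -0.18 ± 0.14 with a 95% interval of -0.49 to 0.12, or -0.05 without VEH replicate 3. The other retinaldehyde dehydrogenases were scarce, with Aldh1a2 at 0.256 ± 0.234 CPM in VEH and 0.239 ± 0.185 CPM in BAY, and Aldh1a3 at 0.514 ± 0.269 and 0.382 ± 0.590 CPM (SD, n = 4). Of the 11 Aldh members with a mean of at least 1 CPM, 5 were higher in BAY, 6 were lower, and 10 had a 95% interval inside a 2-fold change. Aldh1l1, a folate dehydrogenase, read 4.40, 5.07, 12.8 and 4.57 CPM in VEH and 6.47, 5.71, 8.39 and 10.9 CPM in BAY, so that VEH replicate 3 lay above all BAY libraries and the other 3 below them. Its log2 fold change was 0.34 (P = 0.311 by limma, P = 0.429 by the exact permutation test), or 0.71 (P = 0.0111 by limma) without VEH replicate 3. In that fit Aldh1l1 and Gstp1 were the 2 members with an unadjusted P value under 0.05. The share of all genes in that fit was not counted, so the 2 members are not read as a result. With all libraries, 13% of genes averaging 1 CPM or more had such a P value.

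Gst genes conjugate reactive compounds to glutathione, and their summed levels in the BAY libraries of skeletal muscle lay inside the VEH range. The 16 Gst members summed to 123, 135, 161 and 111 CPM in VEH and to 137, 131, 133 and 126 CPM in BAY. Gstm1, a mu-class enzyme, had the highest level per length of any member in skeletal muscle, at 16.4 CPM per kb, and Gstp1 of the pi class followed at 11.7, with Gstm2 at 8.47. Gstm1 read 37.2, 40.4, 51.8 and 33.8 CPM in VEH and 46.7, 32.3, 43.1 and 44.7 CPM in BAY. The log2 fold change of Gstm1 was 0.04, with a 95% interval of -0.30 to 0.38, or 0.16 without VEH replicate 3. Gstp1 read 15.9, 16.1, 21.9 and 16.6 CPM in VEH and 19.4, 23.2, 21.2 and 18.0 CPM in BAY. All BAY libraries lay above 3 of the 4 VEH libraries, and the log2 fold change was 0.22 ± 0.15 (P = 0.161 by limma, P = 0.171 by the exact permutation test), or 0.33 (P = 0.0241 by limma) without VEH replicate 3. Gstm2 read 15.2, 22.4, 18.8 and 12.9 CPM in VEH and 16.1, 17.2, 16.6 and 10.2 CPM in BAY. Gstm1, Gstm2, Gstp1 and its neighbour Gstp2 have close copies, and their recovered reads were fractional in several libraries, so the split of reads among them is uncertain.

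Gstt2, a theta-class enzyme, was 1 of 2 members with a mean of at least 1 CPM whose groups did not overlap. It read 1.75, 2.93, 2.48 and 2.62 CPM in VEH and 3.72, 2.94, 4.00 and 2.94 CPM in BAY. The gap between the highest VEH library and the lowest BAY library was under the worth of 1 read. The log2 fold change was 0.49 ± 0.28, with P = 0.107 by limma and P = 0.0286 by the exact permutation test, the smallest value that 4 against 4 libraries allow. Of all genes at that level, 6.92% had groups without overlap, so 2 of 37 members is near that background.

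The other was Cyp4b1, a P450 of the Cyp4 group, whose members hydroxylate fatty acids at the end of the chain. It read 1.40, 2.09, 2.16 and 1.79 CPM in VEH and 2.34, 3.10, 2.58 and 2.52 CPM in BAY, and stood at 12 to 20 reads in every library. The log2 fold change was 0.52 ± 0.31 (P = 0.118 by limma, P = 0.0286 by the exact permutation test). All 4 Cyp4 members with a mean of at least 1 CPM were higher in BAY, as were 57.5% of all genes at that level. None of their changes passed the test on the deposited values. Cyp4f13 read 2.33, 4.74, 3.89 and 4.77 CPM in VEH and 6.33, 5.22, 6.06 and 4.63 CPM in BAY, a log2 fold change of 0.54 ± 0.26. Its 95% interval was -0.02 to 1.11, and Cyp4f13 was 1 of the 2 members with an unadjusted P value under 0.05 by voom, where its change stayed under 2-fold. With 1 library left out, limma P ran from 0.0398 to 0.189 for Cyp4f13 and from 0.0212 to 0.499 for Cyp4f39. It ran from 0.0468 to 0.485 for Cyp4f17 and from 0.0827 to 0.238 for Cyp4b1. The lowest values came without VEH replicate 4 for Cyp4f13, VEH replicate 2 for Cyp4f39 and BAY replicate 2 for Cyp4f17. For Cyp4f39 and Cyp4f17 that library was the one farthest against the difference. Exact permutation P values over all 8 libraries were 0.0857, 0.286 and 0.314 for Cyp4f13, Cyp4f39 and Cyp4f17. Cyp4f17 read 1.63, 2.09, 2.16 and 2.39 CPM in VEH and 3.30, 1.47, 3.23 and 3.23 CPM in BAY, with 1 BAY library below the VEH range. Cyp4f39, an enzyme of ultra-long-chain fatty acids in skin, had the highest level per length of the group at 7.51 CPM per kb. It read 16.5, 29.98, 17.4 and 17.8 CPM in VEH and 26.8, 20.9, 19.0 and 29.4 CPM in BAY. These 4 stayed higher in BAY under every scaling and with each library left out, from 0.15 to 0.67 on the log2 scale. The 2 scarce members of the group had no steady sign. Cyp4f16, at 0 to 6 reads per library, was at 0.293 CPM in VEH and 0.303 CPM in BAY, with a log2 fold change of -2.06 that rests on 1 BAY library at 0 and of -0.01 on log2(CPM + 1). Cyp4v3, at 4 to 20 reads, had a log2 fold change of -0.03, or 0.40 without VEH replicate 3. The 6 members summed to 22.7, 39.9, 28.3 and 27.6 CPM in VEH and to 40.3, 31.6, 32.6 and 40.4 CPM in BAY, so VEH replicate 2 lay among the BAY libraries.

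Among the P450s of sterols and retinoids, Cyp27a1, a mitochondrial sterol hydroxylase of bile acid synthesis, was the single member averaging 1 CPM or more that had an unadjusted P value under 0.05, where 13% of all genes at that level were. It is on the plus strand of chromosome 1, from 74752733 to 74777051 (mm39). It read 19.6, 29.0, 17.2 and 22.8 CPM in VEH (159 to 208 reads) and 33.6, 26.4, 26.6 and 29.7 CPM in BAY (162 to 244 reads). VEH replicate 2 lay among the BAY libraries, and the other 3 VEH libraries lay below all of them. The mean was 22.1 ± 5.13 CPM in VEH and 29.1 ± 3.37 CPM in BAY (SD, n = 4), and the log2 fold change was 0.41 ± 0.16 (P = 0.0248 and adjusted P = 0.445 by limma, P = 0.0857 by the exact permutation test), or 0.30 (P = 0.0692 by limma) without VEH replicate 3. Cyp26b1, which breaks down retinoic acid, varied widely within both groups, at 7.33, 6.13, 16.6 and 6.68 CPM in VEH and 3.72, 5.54, 18.1 and 13.7 CPM in BAY. High and low libraries occurred in both groups, and the log2 fold change was 0.01 ± 0.45, or 0.34 without VEH replicate 3.

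The drug-metabolizing Cyp1, Cyp2 and Cyp3 group was scarce in skeletal muscle. It held 10 members, of which 4 reached a mean of 1 CPM, and it summed to 14.2, 18.4, 26.2 and 16.3 CPM in VEH and to 19.8, 20.7, 23.5 and 15.3 CPM in BAY. Cyp2u1, a fatty acid hydroxylase, led the group at 1.44 CPM per kb and read 9.32 ± 2.45 CPM in VEH and 9.33 ± 1.28 CPM in BAY. Cyp2d22, of the subfamily that oxidizes many drugs, read 4.54, 4.60, 6.15 and 4.89 CPM in VEH and 6.47, 5.06, 9.03 and 4.77 CPM in BAY, with overlapping groups. Cyp2c23, an epoxygenase of arachidonic acid, stood at 4 to 18 reads per library. For Cyp2s1 the groups held 5 reads in VEH and 1 read in BAY, a ratio of 0.236 with an exact 95% interval of 0.00500 to 2.11 that covers counting error only. Its fitted log2 fold change of -6.40 rests on the offset added to zeros, and on log2(CPM + 1) it was -0.16 (P = 0.231 by limma; the exact permutation test on the deposited scale gave P = 0.0857).

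Conjugation by sulfate or glucuronic acid was barely represented in muscle. Sult1a1, a phenol sulfotransferase, read 6.17, 8.50, 9.50 and 7.16 CPM in VEH and 8.67, 6.69, 7.999 and 6.73 CPM in BAY, with a log2 fold change of -0.05 ± 0.19. Sult5a1 had 0 to 4 reads per library. No Ugt1 or Ugt2 gene was among the 60 members of the muscle table.

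**Figure D2:**
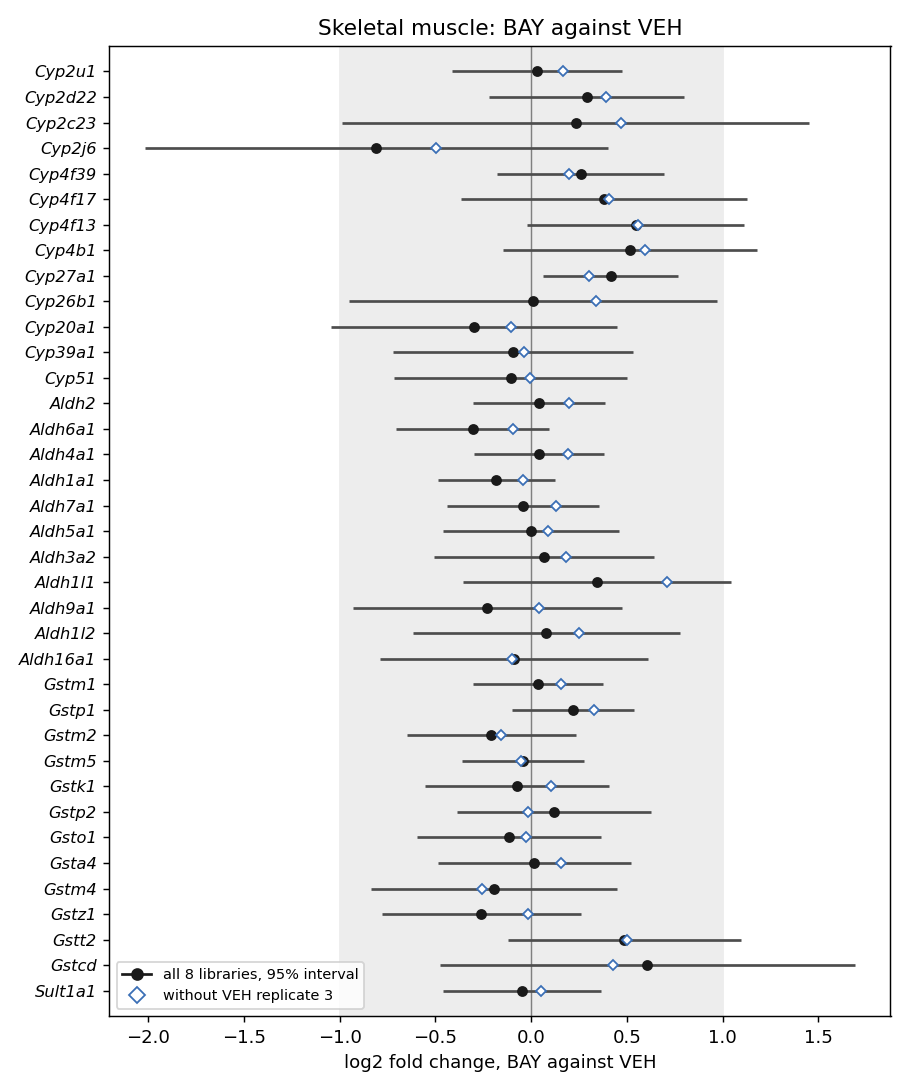
Log2 fold change of BAY against VEH in skeletal muscle for the 37 members with a mean of at least 1 CPM (points, with 95% intervals from limma) and the same value without VEH replicate 3 (open diamonds). The shaded band spans a 2-fold change either way, 28 of the 37 intervals lie inside it, and Cyp27a1 is the single member whose interval leaves out 0.

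Since AhR acts through the XRE, the letters of its core were looked for in the promoters of the members, taken from RefSeq on GRCm38.p6 as 250 bases before to 50 bases after each start. Of all members, 124 matched, with 147 promoters. The core GCGTG, on either strand, was in 23.1% of these promoters and in 32.4% of all 32851 promoters. The longer form TNGCGTG, which contains the core, was in 4.76% and 5.07%, and TGACNNNGC, the electrophile response element known from Gst genes, in 8.16% and 12.4%. A match describes letters and not a bound site. Among the 27 matched members averaging 1 CPM or more in skeletal muscle, the median log2 fold change was 0.04 for the 11 with a core (6 higher in BAY) and -0.06 for the 16 without (6 higher). The promoters shown are those of the 2 leading Gst genes, of an Aldh and a Cyp4 gene with 2 cores each, of Cyp27a1 with none, and of Ugt1a8, which is described with cortical bone. They run 5′ to 3′ along the gene, and capitals mark the core, read as CACGC where it lies on the other strand. Gstm1 has 2 promoters in RefSeq, of which the first listed is shown.
Gstm1 (GRCm38.p6 chr3:108017924-108018223, minus strand): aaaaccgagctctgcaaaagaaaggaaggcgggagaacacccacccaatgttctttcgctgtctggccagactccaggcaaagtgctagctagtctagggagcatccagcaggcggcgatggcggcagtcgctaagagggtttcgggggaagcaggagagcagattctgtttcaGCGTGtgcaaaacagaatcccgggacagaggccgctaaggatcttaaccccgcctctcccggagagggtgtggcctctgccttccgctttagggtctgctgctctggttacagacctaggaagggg
Gstp1 (GRCm38.p6 chr19:4037863-4038162, minus strand): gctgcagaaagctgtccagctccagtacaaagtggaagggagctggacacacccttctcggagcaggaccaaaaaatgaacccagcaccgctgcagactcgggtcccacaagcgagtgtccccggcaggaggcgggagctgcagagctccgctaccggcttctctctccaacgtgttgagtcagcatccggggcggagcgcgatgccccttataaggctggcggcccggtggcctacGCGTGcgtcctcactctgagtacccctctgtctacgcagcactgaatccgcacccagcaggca
Aldh4a1 (GRCm38.p6 chr4:139622644-139622943, plus strand): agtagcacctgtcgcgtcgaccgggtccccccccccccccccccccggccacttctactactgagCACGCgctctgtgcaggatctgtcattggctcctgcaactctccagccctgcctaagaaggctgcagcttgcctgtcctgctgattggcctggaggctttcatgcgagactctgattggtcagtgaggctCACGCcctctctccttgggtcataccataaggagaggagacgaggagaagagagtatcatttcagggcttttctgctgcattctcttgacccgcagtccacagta
Cyp4f39 (GRCm38.p6 chr17:32452473-32452772, plus strand): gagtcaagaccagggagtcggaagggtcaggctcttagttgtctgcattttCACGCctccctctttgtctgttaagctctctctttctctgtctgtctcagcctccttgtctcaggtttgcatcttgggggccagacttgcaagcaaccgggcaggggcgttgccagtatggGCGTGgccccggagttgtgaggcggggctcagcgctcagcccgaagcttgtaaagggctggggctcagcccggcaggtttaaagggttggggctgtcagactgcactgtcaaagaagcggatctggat
Cyp27a1 (GRCm38.p6 chr1:74713285-74713584, plus strand): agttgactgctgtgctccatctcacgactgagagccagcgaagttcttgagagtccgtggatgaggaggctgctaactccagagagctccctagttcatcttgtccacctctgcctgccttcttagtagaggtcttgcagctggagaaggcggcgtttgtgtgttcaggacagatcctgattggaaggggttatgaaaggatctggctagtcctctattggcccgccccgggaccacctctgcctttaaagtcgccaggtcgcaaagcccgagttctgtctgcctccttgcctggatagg
Ugt1a8 (GRCm38.p6 chr1:88087578-88087877, plus strand): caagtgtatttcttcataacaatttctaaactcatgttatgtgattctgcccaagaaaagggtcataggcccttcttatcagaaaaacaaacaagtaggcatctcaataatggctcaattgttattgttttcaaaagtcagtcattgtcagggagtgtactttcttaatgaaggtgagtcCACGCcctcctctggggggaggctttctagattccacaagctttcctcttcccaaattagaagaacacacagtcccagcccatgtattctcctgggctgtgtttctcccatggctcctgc
The core began 76 bases before the start in Gstm1, 13 before it in Gstp1, and 185 and 55 before it in Aldh4a1. Aldh4a1, with its 2 cores, read 36.6, 45.6, 59.8 and 36.7 CPM in VEH and 46.5, 45.0, 40.3 and 48.8 CPM in BAY in muscle, a log2 fold change of 0.04 ± 0.16, or 0.19 without VEH replicate 3.

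In cortical bone the libraries differed widely within each group, and few members passed the test. Of 156 members, 2 were called, and 0.64% of all genes were. After Benjamini-Hochberg adjustment over all genes 0 members passed 0.05, by limma (smallest 0.887) or by voom, while unadjusted P was under 0.05 for 2 members by limma and 6 by voom. The same 2 and 6 members were called, beside 0.64% of all genes called by limma and 3.68% by voom. With a mean of at least 1 CPM, 1 of 133 members had an unadjusted P value under 0.05, beside 0.231% of all genes, and 0 of 133 had groups without overlap, beside 0.291%. The members' median log2 fold change was 1.21, and that of all genes was 0.84. Without VEH replicate 1 these became 0.01 and -0.09. That library was the lowest of the 8 for 132 of the 156 members and for 83.0% of all genes. No member's 95% interval lay inside a 2-fold change, and 0% of the 35016 genes averaging 1 CPM or more had one that did.

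The members' levels in cortical bone were set beside the library's Olfr level. In VEH replicate 1, 72 of the 156 members were at 0, against 8 to 21 in the other libraries, although it was the deepest. The median Olfr gene stood at 0.0303 CPM per kb in that library and at 1.22 to 8.50 in the other 7, and the median member at 0.0525 and at 0.687 to 3.29 CPM per kb. Only 1 to 7 members exceeded 3 times the Olfr median per kb in each of those 7 libraries, against 73 in VEH replicate 1. Ugt1a1 was the single member above that mark in all 8 libraries, Ugt1a7c in 6, and Aldh2, Gstm1 and Cyp4v3 in 3. The part of this background in the members' values was not tested.

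**Figure D3:**
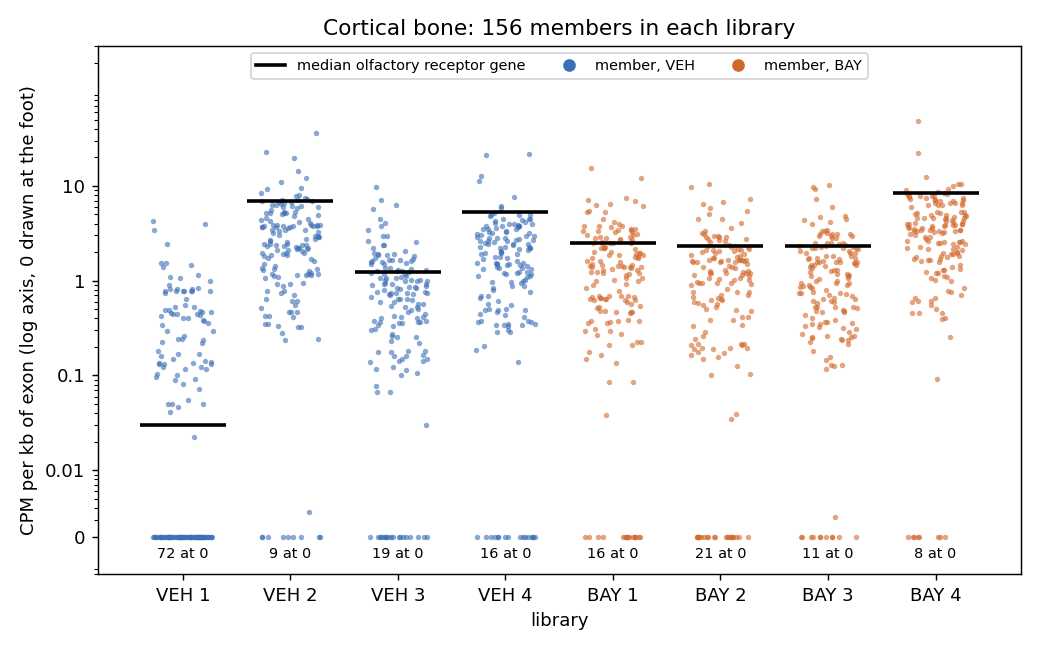
CPM per kb of exon on a log axis of the 156 members in each cortical bone library (points, with members at 0 drawn at the foot and counted there) and the median Olfr gene (bars). In the 7 libraries other than VEH replicate 1 the bar lies above most members, while in VEH replicate 1 it lies at 0.0303 CPM per kb and 72 members are at 0.

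The Cyp1 to Cyp3 and Ugt families, whose members are best known from liver, had sums that differed widely between libraries. The 51 members of Cyp1 to Cyp3 summed to 20.6, 482, 100 and 227 CPM in VEH and to 203, 169, 160 and 600 CPM in BAY. The 18 Ugt members summed to 4.60, 338, 58.2 and 255 CPM in VEH and to 173, 144, 107 and 451 CPM in BAY. All 7 enzyme groups ranked VEH replicate 1 lowest, then VEH replicate 3, then BAY replicates 1 to 3 in varying order, then VEH replicate 4, with VEH replicate 2 and BAY replicate 4 highest, and the Olfr share gave that sequence too. BAY replicate 4 was the highest for Cyp1 to Cyp3, the other Cyp, Ugt and Sult groups, and VEH replicate 2 for Cyp4, Aldh and Gst. In VEH replicate 1, 37 of the 51 and 14 of the 18 were at 0, against 3 of 21 Aldh and 3 of 20 Gst members. The hepatocyte markers in the table, 6 of 8, summed to 1.42 CPM in that library and to 8.73 to 57.8 CPM in the others, with Apoa1, Tat and Ttr at 0 in it and Ttr also at 0 in BAY replicate 2.

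The members with the most reads in VEH replicate 1, where the Olfr level was lowest, were of the kind that led in muscle. Aldh2 had 144 reads there, Aldh1a1 116, Gstm1 75, Sult1a1 51, Aldh4a1 46 and Gstp1 45.4. The muscle fibre markers in that library summed to 6893 CPM, more than in any library but BAY replicates 1 and 2. The part of muscle RNA in these reads was not tested. Aldh2 read 20.7, 41.4, 59.9 and 77.9 CPM in VEH and 38.9, 38.9, 56.5 and 29.0 CPM in BAY. The log2 fold change of Aldh2 was -0.17 ± 0.58 and its groups overlapped. Its lowest library was VEH replicate 1, so leaving that library out makes the change more negative. Gstm1 read 10.8, 5.52, 17.7 and 28.4 CPM in VEH and 13.4, 14.9, 24.3 and 3.22 CPM in BAY, a log2 fold change of -0.23 ± 0.85. Gstp1 was at 7.66 ± 2.12 CPM in VEH and 7.48 ± 4.42 CPM in BAY (SD, n = 4). Cyp26b1, the retinoic acid hydroxylase, was at 19.0 ± 9.16 and 19.7 ± 3.40 CPM. Aldh3a1, a textbook AhR target that the muscle table did not list, had 19, 2, 5 and 2 reads in VEH and 2, 3, 3 and 1 in BAY. Its CPM were 2.73, 1.84, 1.77 and 1.46 in VEH and 0.894, 1.24, 1.53 and 1.07 in BAY, with a single overlap between the groups, and the log2 fold change was -0.71 with a 95% interval of -4.54 to 3.12 (exact permutation P = 0.0571). Gsta1 and Gsta2 were listed in neither table.

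Both called members of cortical bone rested on few reads. Cyp2b9, of the Cyp2b subfamily, had 0, 0, 2 and 0 reads in VEH and 3, 1, 1 and 5 in BAY, a ratio of 8.10 with an exact 95% interval of 1.73 to 76.1 over the pooled reads. Cyp2c54, a Cyp2c enzyme, had 0 reads in all VEH libraries and 0, 1, 1 and 4 in BAY. With the VEH group set to a floor of 3 reads the ratio was 3.24. The exact 95% lower limit of the ratio of the pooled reads, with VEH at 0, was 1.91. VEH replicate 1 gave 0 reads of both genes and 6951919 of the 12234164 VEH library reads. Without it the Cyp2b9 ratio was 3.50, with an interval of 0.746 to 32.8. For Cyp2c54 the ratio against the floor was then 1.40, and the exact lower limit with VEH at 0 was 0.824. The lower limits of both genes then lay under 1. These intervals and floors cover counting error only, and BAY replicate 4, which had the highest Olfr share, gave 5 of the 10 BAY reads of Cyp2b9 and 4 of the 6 of Cyp2c54. The fitted log2 fold changes of 10.24 (P = 0.0428 by limma, P = 0.0857 by the exact permutation test) and 9.93 (P = 0.0277 and P = 0.143) depend on the offset. On log2(CPM + 1) they were 1.05 and 0.87, with P = 0.0660 and P = 0.0785 by limma beside those exact values.

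Other members were called on other scales, among them Ugt1a genes of chromosome 1, which share their last exons and differ in the first. Ugt1a10 had 0, 5.50, 1.60 and 3.00 reads in VEH and 19.9, 12.9, 7.80 and 12.7 in BAY. In CPM these were 0, 5.02, 0.572 and 2.21 in VEH and 8.88, 5.34, 3.95 and 13.7 in BAY, with VEH replicate 2 above BAY replicate 3 as the single overlap. On log2(CPM + 1) Ugt1a10 was the 1 member called, at 1.81 (P = 0.0499 by limma; exact permutation P = 0.0571 on the deposited scale), where 0.501% of all genes were called. With voom on the reads 6 members were called, Ugt1a1, Ugt1a8, Ugt1a10, Cyp2d12, Aldh3b3 and Aldh8a1, all higher in BAY, and 3.68% of all genes were called. Ugt1a8 read 0.440, 22.7, 6.33 and 13.3 CPM in VEH and 24.0, 23.5, 14.3 and 28.9 CPM in BAY. Aldh3b3 read 0, 50.6, 6.38 and 20.4 CPM in VEH and 22.8, 22.6, 20.4 and 34.4 CPM in BAY. All 6 were at their lowest in VEH replicate 1, and without it voom called none of them, with log2 fold changes from 0.02 for Ugt1a1 to 1.85 for Ugt1a10. The reads of the Ugt1a genes were fractional in 7 or 8 libraries for each of Ugt1a1, Ugt1a7c, Ugt1a8 and Ugt1a10, so their split is uncertain.

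Aldh1a1 was called in cortical bone when VEH replicate 1 was left out. It read 16.7, 11.97, 2.83 and 9.46 CPM in VEH and 30.4, 33.9, 9.68 and 20.4 CPM in BAY, and its log2 fold change was 1.31 ± 0.79 with all libraries (P = 0.120 by limma, P = 0.114 by the exact permutation test) and 1.63 without that library (P = 0.0331 by limma). BAY replicates 1 and 2 were the highest. The muscle fibre markers summed to 6893, 176, 60.0 and 32.0 CPM in VEH and to 29984, 33325, 1132 and 73.0 CPM in BAY, highest in the same 2 libraries. In the separately normalized muscle table Aldh1a1 read 67.9 to 110 CPM. The part of muscle RNA in the value in bone was not tested.

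**Figure D4:**
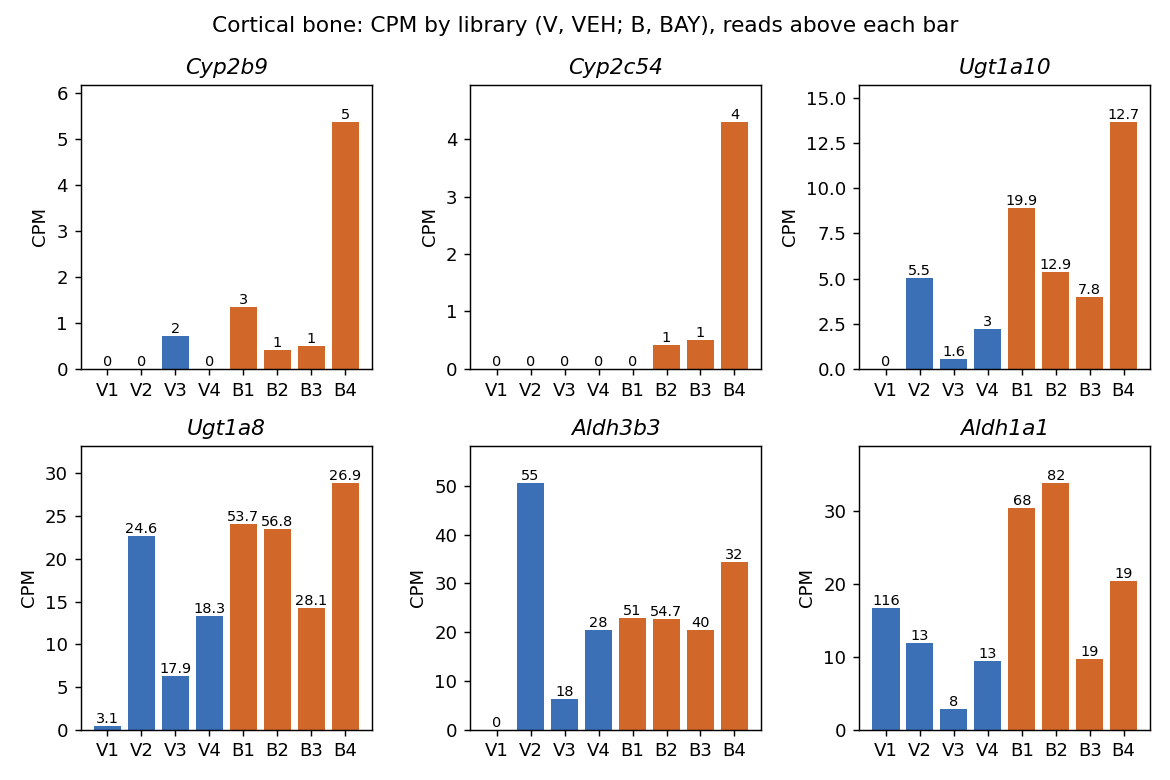
CPM (bars) of 6 members in each cortical bone library, with VEH in blue, BAY in orange and the recovered reads above each bar. Cyp2b9 and Cyp2c54 rest on 0 to 5 reads per library, Ugt1a10, Ugt1a8 and Aldh3b3 are lowest in VEH replicate 1, and Aldh1a1 is highest in BAY replicates 1 and 2.

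The genes around these families were taken from 5 lists of 67 genes (redox partners and other phase I enzymes, other phase II enzymes, glutathione supply, transporters and receptors). In skeletal muscle 59 were in the table and 0 were called by limma, 4 had an unadjusted P value under 0.05, and voom called 1, Mgst1. Mgst1, a microsomal glutathione S-transferase, was highest in VEH replicate 3 at 4.43 CPM, and without that library voom called 0 partner genes. The shares over all genes were 2.43% called by limma and 3.33% by voom, and the 4 genes, all among 47 averaging 1 CPM or more, stand beside 13% of all genes at that level with an unadjusted P value under 0.05. Groups without overlap occurred for 3 of the 47 (Xdh, Ugp2 and Hmox1), beside 6.92% of all genes, and for Hpgds under 1 CPM. Xdh, the xanthine dehydrogenase of purine breakdown, read 35.9, 29.6, 33.0 and 38.6 CPM in VEH and 48.0, 49.1, 45.7 and 48.5 CPM in BAY. All 4 BAY libraries lay above all VEH libraries, with a log2 fold change of 0.49 ± 0.12 (P = 0.00115 and adjusted P = 0.275 by limma, P = 0.0286 by the exact permutation test). Ugp2, which makes the UDP-glucose from which the sugar acid of Ugt reactions is formed, read 116, 104, 145 and 94.2 CPM in VEH and 78.3, 91.5, 85.3 and 55.5 CPM in BAY. All 4 BAY libraries of Ugp2 lay below all VEH libraries, and its log2 fold change was -0.57 ± 0.17 (P = 0.00531 and adjusted P = 0.322 by limma, P = 0.0286 by the exact permutation test). Ces1d, a carboxylesterase, was at 33.9 ± 6.58 CPM in VEH and 22.3 ± 4.31 CPM in BAY, with a log2 fold change of -0.61 (P = 0.00270 by limma, P = 0.0571 by the exact permutation test). Rxra, a nuclear receptor that pairs with other receptors, was at 90.7 ± 11.5 and 109 ± 11.3 CPM, with a log2 fold change of 0.27 (P = 0.0491 by limma, P = 0.0857 by the exact permutation test). Hmox1, the heme oxygenase, was at 1.72 ± 0.183 CPM in VEH and 0.973 ± 0.447 CPM in BAY, and Hpgds, a prostaglandin D synthase, at 1.18 ± 0.254 and 0.606 ± 0.219 CPM, both with exact permutation P = 0.0286 and limma P of 0.0670 and 0.0840. Nqo1, a quinone reductase and textbook target of AhR, read 4.68 ± 1.05 CPM in VEH and 4.99 ± 1.13 CPM in BAY. Por, the reductase that supplies microsomal P450s with electrons, was at 10.6 ± 6.45 and 10.5 ± 1.40 CPM, with VEH replicate 3 the highest at 19.6 CPM. The log2 fold change of Por was 0.18 (P = 0.588 by limma, P = 0.686 by the exact permutation test), or 0.54 (P = 0.0420 by limma) without that library. In cortical bone 66 were in the table, 0 were called by limma, 0 had an unadjusted P value under 0.05, and voom called Abcc2 alone, which had 1 read in VEH replicate 1 and 25 to 42 in the others. Without VEH replicate 1 voom called 0. Mgst3, another microsomal glutathione S-transferase, was the single partner gene in bone with groups that did not overlap. It read 1.58, 1.84, 1.77 and 2.91 CPM in VEH and 11.2, 7.44, 3.06 and 6.45 CPM in BAY. Over all bone genes averaging 1 CPM or more, 0.291% had groups without overlap. Its log2 fold change was 1.69 ± 1.18 (P = 0.176 by limma, P = 0.0286 by the exact permutation test), and 1.59 without VEH replicate 1. Mgst3 was highest in BAY replicates 1 and 2, the libraries with the most muscle fibre markers, and averaged 17.0 CPM in the muscle table. VEH replicate 1 had the next highest fibre sum, 6893 CPM, and the lowest Mgst3. BAY replicate 4, with fibre markers at 73.0 CPM, read 6.45 CPM of Mgst3. The part of muscle RNA in the Mgst3 values in bone was not tested.

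**Figure D5:**
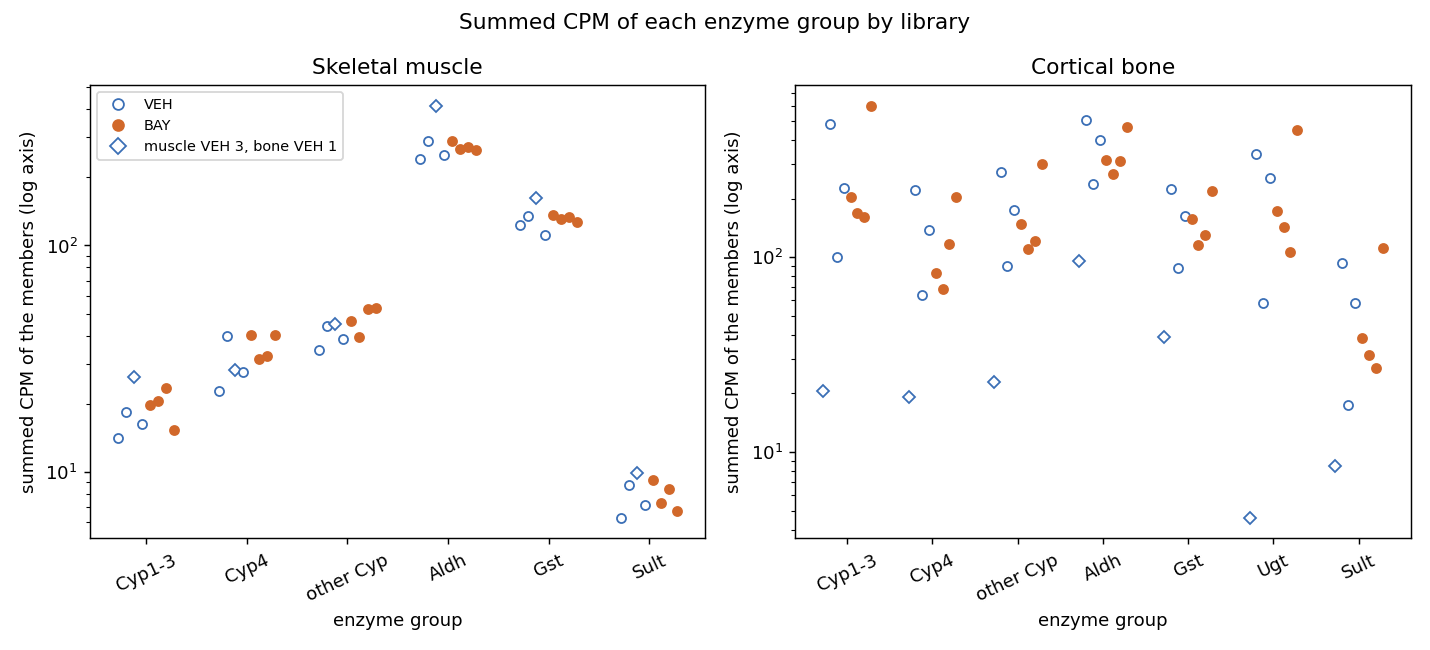
Summed CPM on a log axis of each enzyme group in skeletal muscle (left) and cortical bone (right), 1 point per library, with VEH open, BAY filled, and muscle VEH replicate 3 and bone VEH replicate 1 as diamonds. VEH replicate 3 is highest for Aldh at 414 CPM in muscle, and VEH replicate 1 is lowest in every group in bone, from 4.60 CPM for Ugt to 95.5 CPM for Aldh; the tables were normalized separately.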

How the data were processed

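Cortical bone and tibialis anterior muscle were sequenced from 4 VEH and 4 BAY mice each, and groups came from the sample labels. The authors aligned reads to mm39 with STAR 2.7.8a in Partek Flow, quantified genes with Partek's expectation-maximization model, and deposited log2 values of CPM plus an offset (0.0001 in bone, 0.0004 in muscle), normalized separately per tissue. Muscle RNA was prepared with the Illumina Stranded mRNA Prep.

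From these log2 values the CPM were restored, and the steps of low values gave the worth of 1 read. Of the values above 0 and up to 50 reads, 86.1% to 88.3% in bone and 81.0% to 83.2% in muscle were within 0.02 of a whole read. The quantification model can split reads between genes. Libraries held 930307 to 6951919 reads in bone and 6131919 to 9262358 in muscle, so 3 reads were worth 0.432 to 3.22 and 0.324 to 0.489 CPM.

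Within a tissue, the difference of BAY from VEH was fitted by limma 3.58.1 (R 4.3.3; trended empirical Bayes, two-sided) on the deposited log2 values of all genes, with Benjamini-Hochberg adjustment. Single members were also tested by exact two-sided permutation of the 8 libraries (70 splits, smallest P = 0.0286). The scripts were checked on simulated data. Named members are those called on the deposited scale or on log2(CPM + 1), those averaging 1 CPM or more whose groups did not overlap, the 3 with the highest CPM per kb of exon in each of 7 groups of enzymes, and Aldh3a1, Gsta1, Gsta2, Aldh1a1, Aldh1a2 and Aldh1a3. Aldh1l1, Aldh8a1, Cyp2j6, Cyp4f16, Gstcd and Gstp2 fall outside this rule, were chosen after their values were seen, and in the same way some members are given in the tissue where the rule did not name them. The members and lists were chosen with earlier results of these data known. Alternatives were other offsets, leaving out genes averaging under 1 CPM, centring on the library median, quantile normalization, no trend, array weights, a replicate block, voom on recovered reads, and leaving out each library. P values measure the spread between these libraries.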

Additional observations from a re-analysis of the deposited data

Results flagged for a closer look

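In 118 groups of 4 libraries, 6 held a value far from the other 3 by Dixon's test at the 95% level, which chance gives in about 1 of 20 groups. By tissue these were 5 of 50 groups in skeletal muscle and 1 of 68 in cortical bone. In skeletal muscle, Aldh6a1 read 44.8 CPM in BAY replicate 4 against 56.9 to 59.0 CPM in the other BAY libraries, and Gstm2 read 10.2 CPM in that same library against 16.1 to 17.2 CPM. Cyp4f17 read 1.47 CPM in BAY replicate 2 against 3.23 to 3.30 CPM. Cyp4f39 read 29.98 CPM in VEH replicate 2 against 16.5 to 17.8 CPM. Gstp1 read 21.9 CPM in VEH replicate 3, the library with the high adipocyte markers, against 15.9 to 16.6 CPM. In cortical bone, Cyp2b9 stood at 0.709 CPM in VEH replicate 3, which is 2 reads, and at 0 in the other VEH libraries. Beside such tied zeros any value above 0 is flagged.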

How the results depend on the processing

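In skeletal muscle 1 member was called, and 0 on log2(CPM + 1), on log2(CPM + 0.1), with a filter at a mean of 1 CPM and with voom, also for log2(CPM + 1) and voom without VEH replicate 3. Leaving out 1 library gave 0 to 2, with 0 without VEH replicates 3 or 4 or BAY replicates 1 or 2, and 2 (Cyp2f2 and Cyp2t4, chosen after their values were seen) without VEH replicate 2. Called partner genes went from 0 to 1 on log2(CPM + 0.1), with median centring, quantile normalization, no trend, array weights and voom, and from 0 to 1 with a library left out. The members' median log2 fold change of -0.01 became 0.17 with voom without VEH replicate 3, and ran from -0.12 to 0.14 with a library left out. In cortical bone 2 members were called, 1 on log2(CPM + 1), on log2(CPM + 0.1), with the filter, and without VEH replicate 1 on log2(CPM + 1) or with voom. Array weights gave 4 (Aldh1a1, Aldh1a7, Cyp2d10 and Cyp7b1), quantile normalization 3 (Cyp2d10, Ugt1a8 and Ugt1a10) and voom 6, and neither Cyp2b9 nor Cyp2c54 was among these. Median centring and no trend each gave 3, with both Cyp2b9 and Cyp2c54 among them. Shares of all genes were not counted with array weights, quantile normalization, median centring or no trend. Aldh1a7, Cyp2d10 and Cyp7b1 were chosen after their values were seen. Leaving out 1 library gave 0 to 3, with 0 without VEH replicate 4 or BAY replicate 4, and 1 without VEH replicate 3 or BAY replicate 3. Called partner genes went from 0 to 1 without trend (Mgst3) and with voom (Abcc2) and to 2 with array weights (Mgst3 and Ugp2). The cause of these moves was not tested. The members' median of 1.21 in bone was -0.28 with array weights and ran from 0.01, without VEH replicate 1, to 2.07. Of the named members, 9 of 23 in muscle and 17 of 28 in bone changed sign under at least 1 setting. Same-numbered VEH and BAY libraries correlated at -0.0885 to 0.00750 in muscle and -0.109 to 0.188 in bone. So few correlations cannot settle whether the numbers pair the libraries, and the labels name no pairing. With the replicate block 1 muscle and 2 bone members were called. The alternatives with log2(CPM + 1) or voom and a library left out, and the ratios of pooled reads without a library, were chosen after seeing the data. In bone, 3 reads were worth up to 3.22 CPM, which limits the scarce members.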
